A study of Mus musculus with 2 samples.

Results

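The genes of glycolysis, of the pentose phosphate pathway and of lactate and pyruvate handling were examined in total RNA from the forebrain of mouse embryos. The 37 genes were chosen by name, with earlier results of these data known, and do not include every enzyme of these pathways. All 37 were found among the 43346 genes listed in the deposited tables. The series holds 1 group with 2 biological replicates, and each replicate is a separate pool of forebrain tissue. Embryos were of the B6NCrl strain, aged 16.5 days of gestation, healthy, with males and females mixed. The label of the second pool gives 41 embryos, and that of the first says that it was pooled without a number. Each library was made from 10 ng of RNA longer than 200 nt, with spike-in RNA added. With a single group, the data allow levels, isoform ratios and the spread between the pools, and no test between conditions.

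Glycolysis splits glucose into pyruvate in the cytosol and yields ATP, and pyruvate then either becomes lactate or enters mitochondria through pyruvate dehydrogenase. The pentose phosphate pathway branches off after the first phosphorylation of glucose and gives NADPH and the ribose of nucleotides, both of which dividing cells need. Many steps are encoded by several genes whose proteins differ in regulation, and brain tissue is known for particular ones among them, such as Hk1, Eno2 and the transporter Slc2a3 of neurons. One gene, Pkm, makes its alternative enzymes by choosing between a pair of exons.

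That choice can be read from the transcript tables, which list 2 Pkm transcripts. Both exons have 167 bases and lie on the plus strand of chromosome 9 of mm10. The upstream exon (chr9:59675029-59675195) belongs to the M1 type of pyruvate kinase, the constitutively active form of adult muscle and brain. The downstream exon (chr9:59675568-59675734) belongs to the M2 type, the regulated form of embryonic and dividing cells. The exons are shown because they are what separates the enzyme types. They are taken from the GENCODE M21 transcripts, 5′ to 3′, and capitals mark the 64 bases that differ at the same position of the other exon, which leaves 61.7% identity.
upstream (M1-type): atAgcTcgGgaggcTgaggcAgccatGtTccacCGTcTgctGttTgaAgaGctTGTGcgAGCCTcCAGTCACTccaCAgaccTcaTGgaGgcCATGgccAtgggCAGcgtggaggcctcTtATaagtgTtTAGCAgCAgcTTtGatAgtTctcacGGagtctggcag
downstream (M2-type): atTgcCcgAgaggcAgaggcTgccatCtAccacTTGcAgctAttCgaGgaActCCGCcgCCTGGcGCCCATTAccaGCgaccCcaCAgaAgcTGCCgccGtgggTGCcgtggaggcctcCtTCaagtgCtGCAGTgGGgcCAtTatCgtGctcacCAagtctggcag

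Pkm RNA of both types was abundant and nearly equally divided. The M1-type transcript Pkm-202 stood at 472 TPM (a transcript level corrected for length and library size) in replicate 1 and 459 TPM in replicate 2. The M2-type transcript Pkm-201 stood at 422 TPM in replicate 1, against 484 TPM in replicate 2. The M1 share was therefore 52.8% in replicate 1 and 48.7% in replicate 2, a mean of 50.7 ± 2.90% (SD, n = 2), and the leading type was not the same in the pools. Both transcripts have a deposited length of 2432 nt, so the same mean share from counts is no separate check. In M21 Pkm-202 has 2041 nt, so its exons and M1 label come from a model that differs in length from the one quantified. The division was made by the authors' quantification model, and in tissue RNA an even split can come from cells that hold both types or from a mixture of cells. These cannot be told apart in bulk RNA, and likewise fewer cells of a type and less RNA per cell cannot be told apart for any gene below.

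Replicate 1 had 31211128 expected counts on genes and replicate 2 had 26957198, of which the 37 genes held 0.748% and 0.743%. Neural markers were high, with summed levels of 3980 and 3670 TPM over 5 neuronal markers in replicates 1 and 2 and of 1690 and 2130 TPM over 4 radial glia markers. Of the forebrain lineages, 2 cortical excitatory markers summed to 481 and 601 TPM and 2 ganglionic eminence markers to 230 and 244 TPM. Markers of other cell types and of 1 forebrain region also differed between the pools. The 4 meningeal fibroblast markers summed to 120 TPM in replicate 1, against 320 TPM in replicate 2, and 5 red blood cell markers to 10600 and 13400 TPM. The 3 hypothalamic markers summed to 22.9 and 4.66 TPM, most of it from Avp at 19.6 and 3.98 TPM. None of these markers is one of the 37 genes.

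All 37 genes reached 1 TPM in both libraries, as did 34.1% of all listed genes and 60.7% of protein-coding genes. A level of 10 TPM in both libraries was reached by 33 of the 37, against 40.9% of protein-coding genes, and 100 TPM by 15 of the 37, against 7.74%. Their median level was 79.5 TPM, beside 21.9 TPM over the protein-coding genes at 1 TPM or more. Expected counts per library ran from 198 for Slc16a7 in replicate 2 to 39173 for Pkm in replicate 1, so counting error was small for most of them. Throughout, a level is the mean ± SD over the 2 libraries.

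**Figure D1:**
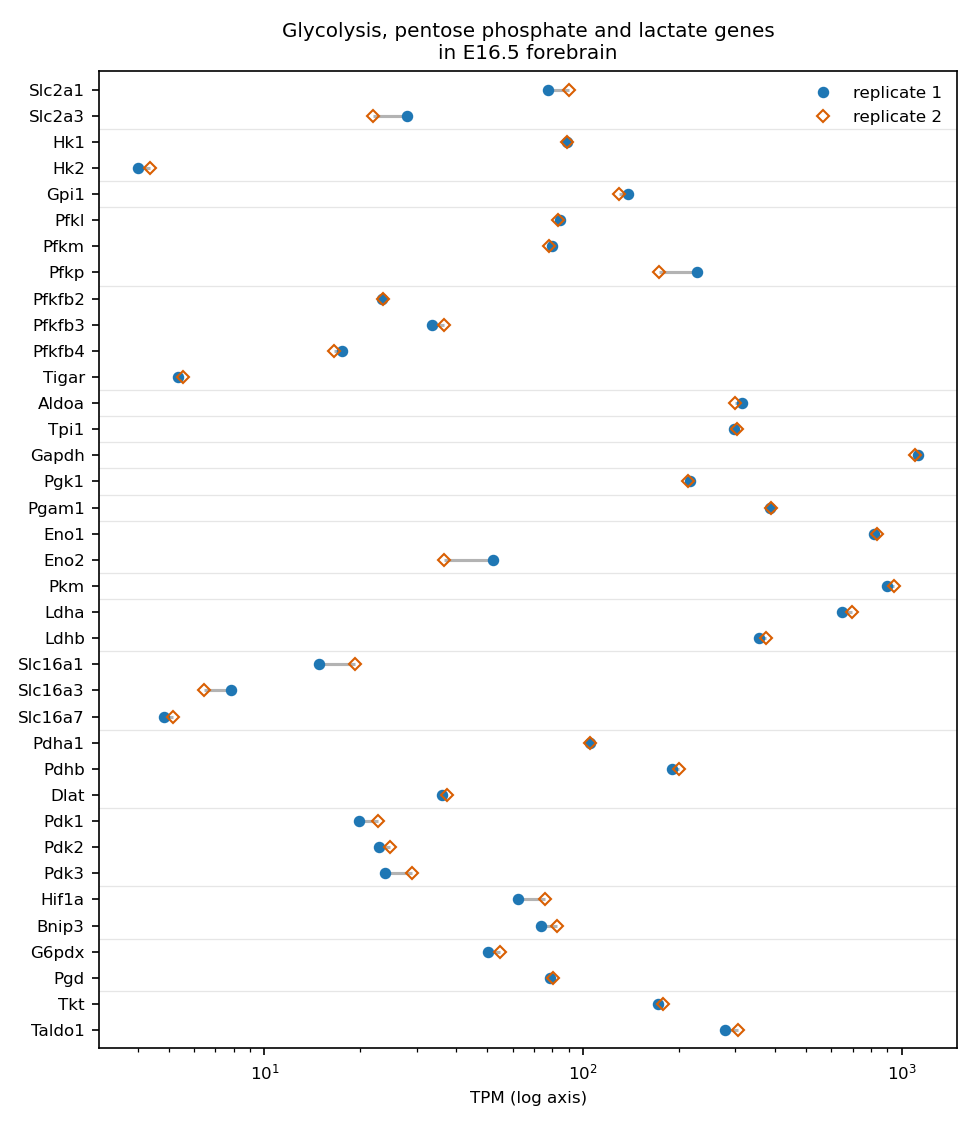
Level of each of the 37 genes in TPM on a log axis, in pathway order from top to bottom, with thin lines between steps; filled circles are replicate 1 and open diamonds replicate 2. Gapdh, Pkm, Eno1 and Ldha lie farthest to the right, Hk2, Tigar, Slc16a3 and Slc16a7 are the 4 genes under 10 TPM, and the widest gaps between the pools are those of Eno2, Pfkp, Slc16a1 and Slc2a3.

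Glucose transporter RNA was led by Slc2a1, which encodes GLUT1, the transporter of the blood-brain barrier, glia and red blood cells. It was at 77.8 TPM in replicate 1, against 90.3 TPM in replicate 2. Slc2a3, which encodes the high-affinity neuronal transporter GLUT3, was at 28.0 TPM in replicate 1, against 21.9 TPM in replicate 2. The ranges of the genes did not overlap, and Slc2a1 made up 73.6% of their summed level in replicate 1 and 80.5% in replicate 2. The log2 ratio of Slc2a1 over Slc2a3 was 1.76 ± 0.40.

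Hexokinase RNA was nearly all Hk1. This isozyme, known from adult brain, was at 89.1 TPM in replicate 1, against 88.9 TPM in replicate 2. Hk2, the insulin-responsive isozyme of muscle and fat that many tumours switch on, was at 4.02 TPM in replicate 1, against 4.37 TPM in replicate 2. Hk1 thus exceeded Hk2 by a log2 ratio of 4.38 ± 0.09 and held 95.5 ± 0.26% of their sum. Of the Hk2 level, 47.5% in replicate 1 and 48.3% in replicate 2 was assigned to Hk2-202, a short transcript of 594 nt annotated as non-coding, on 17.7 and 16.5 expected counts. All of its bases lie inside exons of coding Hk2 transcripts. Over coding transcripts alone the ratio was 5.26 ± 0.04. Hk1 itself was read from separate start sites: Hk1-202, which starts at position 62340542 of chromosome 10, held 67.0% of it in both libraries, and Hk1-201, which starts at 62358362 and has another coding sequence, held 30.2% and 28.8%. Gpi1, the isomerase that follows, was at 134 ± 5.99 TPM.

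Phosphofructokinase, the committed step of glycolysis, was expressed from all 3 of its genes, which are named after liver (Pfkl), muscle (Pfkm) and platelets (Pfkp). Pfkl was at 84.3 TPM in replicate 1, against 83.1 TPM in replicate 2, and Pfkm at 80.1 TPM in replicate 1, against 78.1 TPM in replicate 2. These levels lay close together, with a log2 ratio of Pfkl over Pfkm of 0.08 ± 0.01, and of 0.05 ± 0.02 over coding transcripts, which did not exceed 3 SD. Pfkp had the highest gene level, 227 TPM in replicate 1, against 172 TPM in replicate 2, and a log2 ratio over Pfkm of 1.32 ± 0.26.

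The lead of Pfkp rested on transcripts annotated as retained introns. Protein-coding transcripts of Pfkp were at 39.1 TPM in replicate 1, against 27.8 TPM in replicate 2, and 82.8% and 83.9% of its level lay on other transcript types. The largest was Pfkp-210, a piece of 702 nt on chromosome 13 (6598295 to 6602811), with 46.0% of the gene's TPM in replicate 1 and 47.8% in replicate 2. Only 36.8% of its bases lie in exons of coding Pfkp transcripts. Over coding transcripts the order turned round, with log2 ratios of -1.26 ± 0.32 for Pfkp over Pfkm and 1.31 ± 0.35 for Pfkl over Pfkp. Counted per kilobase of each gene's longest coding transcript, Pfkp over Pfkm came to 0.06 ± 0.24, so the rank of Pfkp among the isoforms was not settled by these data. The comparison by transcript type was chosen after seeing the data.

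The enzymes that set the level of the phosphofructokinase activator were lower at the gene level. Pfkfb3, a strong kinase for the activator, was at 33.6 TPM in replicate 1, against 36.6 TPM in replicate 2. Its coding transcripts were at 29.6 and 33.0 TPM, above the 27.8 TPM of coding Pfkp transcripts in replicate 2. Pfkfb2 was at 23.4 ± 0.06 TPM and Pfkfb4 at 17.0 ± 0.62 TPM. Tigar, which degrades the activator and turns sugar towards the pentose phosphate pathway, was lowest at 5.46 ± 0.13 TPM. The log2 ratio of Pfkfb3 over Pfkfb2 was 0.58 ± 0.08 and that of Pfkfb3 over Tigar 2.66 ± 0.05. The order of Pfkfb4 and Pfkfb2 was not settled, with log2 ratios of -0.46 ± 0.06 over all transcripts, 0.29 ± 0.01 over coding transcripts and -0.01 ± 0.05 per kilobase. Of the Pfkfb2 level, 39.1% in replicate 1 and 42.0% in replicate 2 lay on other transcript types. Among them was Pfkfb2-205, annotated as a target of nonsense-mediated decay. Of its bases, 99.2% lie in exons of coding Pfkfb2 transcripts, so the division of reads between these is uncertain.

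**Figure D2:**
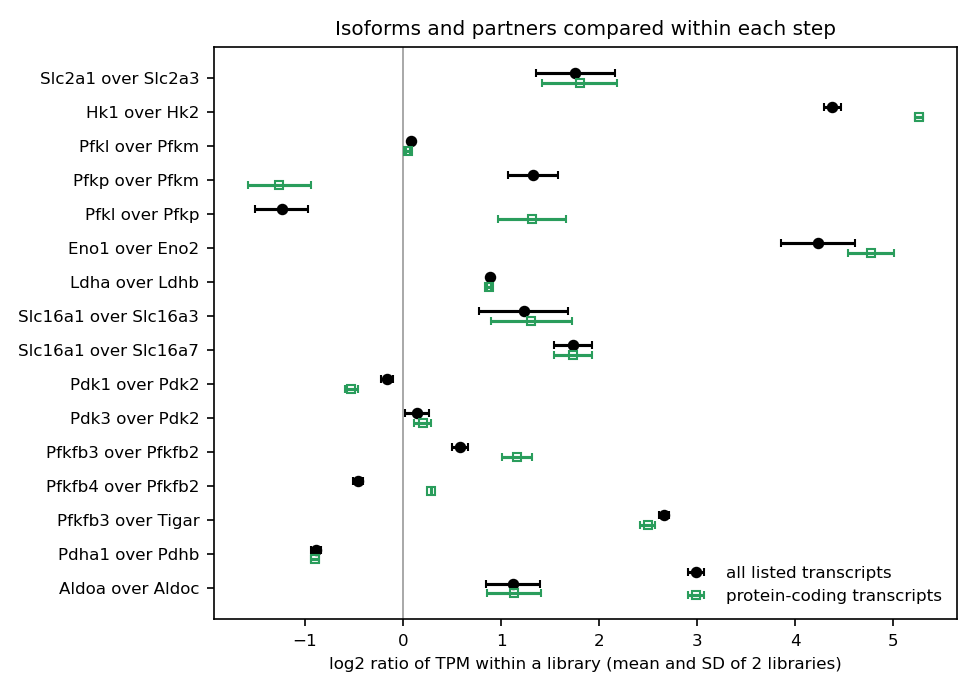
Log2 ratio of TPM between the genes of a step within each library, as mean and SD over the 2 libraries, for all listed transcripts (filled circles) and for protein-coding transcripts alone (open squares); the vertical line is equality. Hk1 over Hk2 and Eno1 over Eno2 lie farthest from equality, and the pairs with Pfkp and the pair of Pfkfb4 over Pfkfb2 change sides between the measures.

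Within glycolysis, the highest levels were those of Gapdh, Pkm and Eno1. Gapdh, the dehydrogenase that yields NADH, was at 1123 TPM in replicate 1, against 1101 TPM in replicate 2, rank 59 among protein-coding genes. Pkm followed at 919 ± 34.7 TPM and rank 78, and Eno1, the enolase of most tissues, at 826 ± 11.6 TPM and rank 92. Aldoa, the aldolase of muscle and many other tissues, Tpi1, which interconverts the triose phosphates, and Pgk1, which makes the first ATP of the pathway, stood at 308 ± 10.5, 301 ± 5.10 and 214 ± 2.14 TPM. Aldoa and Tpi1 did not differ beyond their spread. Pgam1, the brain-type mutase, was at 387 ± 2.84 TPM.

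Eno2, known as neuron-specific enolase and a marker of maturing neurons, was far below Eno1. It was at 52.2 TPM in replicate 1, against 36.7 TPM in replicate 2, and Eno2 made up 5.11 ± 1.26% of the enolase level. The log2 ratio of Eno1 over Eno2 was 4.24 ± 0.38. Of the Eno2 level, 38.0% in replicate 1 and 28.8% in replicate 2 lay on transcripts that are not protein-coding, most of it on a retained-intron form, and the ratio over coding transcripts was 4.78 ± 0.23. Aldoa likewise exceeded Aldoc, the aldolase of astrocytes and radial glia, by 1.12 ± 0.28, with Aldoc at 127 TPM in replicate 1, against 158 TPM in replicate 2.

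The rank of Gapdh depended on a short non-coding form. Gapdh-208, a transcript of 483 nt annotated as processed and without a reading frame, was given 55.8% of Gapdh TPM in replicate 1 and 57.5% in replicate 2. All of its bases lie inside coding Gapdh exons, so the division of reads between it and the full-length message is uncertain. Protein-coding Gapdh transcripts came to 489 TPM in replicate 1, against 460 TPM in replicate 2, below the coding transcripts of Pkm, Eno1 and Ldha in both. Gapdh and Pfkp were the 2 genes with under 50% of their TPM on protein-coding transcripts in both libraries, as had 7.52% of detected protein-coding genes. In expected counts, coding transcripts held 71.4% and 70.3% of Gapdh in replicates 1 and 2, but 29.3% and 27.4% of Pfkp. At least 90% of TPM lay on coding transcripts in both libraries for 29 of the 37, as for 62.3% of detected protein-coding genes.

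**Figure D3:**
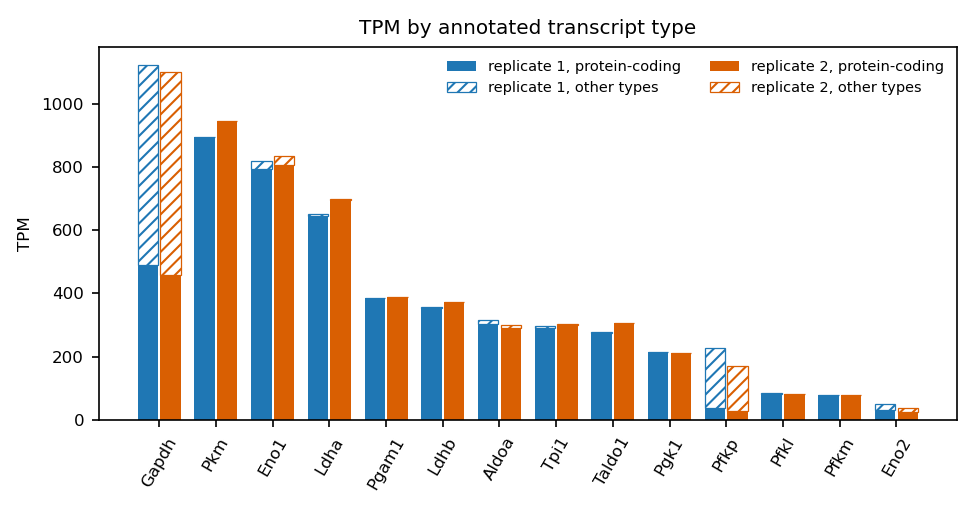
TPM of 14 of the genes in replicate 1 (left bar of each pair) and replicate 2 (right bar), divided into protein-coding transcripts (solid) and all other annotated transcript types (hatched); bars start at 0. Most of the TPM of Gapdh and Pfkp is hatched, though most counts of Gapdh lie on coding transcripts, and the TPM of Pkm, Pgam1 and Ldhb is solid.

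Several of these enzymes have processed pseudogenes, copies that were made from their messages and can take up their reads. By sequence, 264 listed pseudogenes resembled Gapdh, and together they held counts equal to 11.8% of those of Gapdh in replicate 1 and 12.0% in replicate 2. Pgk1-rs7, a copy of Pgk1, had 616 counts in replicate 1 and 919 in replicate 2, or 8.82% and 15.9% of the Pgk1 counts. Pgam1-ps2, a copy of Pgam1, had 911 counts in replicate 1 and 471 in replicate 2. The copies differed between the pools in opposite directions, while Pgk1 and Pgam1 had log2 ratios of replicate 1 over replicate 2 of 0.04 and 0.002, and of -0.05 and 0.04 with their copies added. The authors' posterior SD of the count exceeded 0.5% of the count in at least 1 library for 3 of the 37 genes, namely Pgk1, Pgam1 and Gapdh.

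Lactate dehydrogenase RNA came from both subunit genes. Ldha, whose subunit is found in muscle-type enzyme and favours lactate formation, was at 650 TPM in replicate 1, against 697 TPM in replicate 2. Ldhb, whose subunit is found in heart-type enzyme, was at 356 TPM in replicate 1, against 374 TPM in replicate 2. Ldha held 64.9 ± 0.32% of the sum, and the log2 ratio of Ldha over Ldhb, 0.89 ± 0.02, varied little between the pools.

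RNAs of the transporters that carry lactate and pyruvate across the cell membrane were much lower than those of the dehydrogenase. Slc16a1 (MCT1), found in endothelium and glia, was at 14.8 TPM in replicate 1, against 19.2 TPM in replicate 2. Slc16a3 (MCT4), an exporter of glycolytic cells, was at 7.86 TPM in replicate 1, against 6.47 TPM in replicate 2, and Slc16a7 (MCT2), the high-affinity neuronal form, at 4.83 and 5.18 TPM. The ratio of Slc16a1 over Slc16a3, 1.23 ± 0.46 on the log2 scale, did not exceed 3 SD, while that of Slc16a1 over Slc16a7, 1.73 ± 0.19, did. Slc16a1 over Slc16a3 did exceed 3 SD over coding transcripts, at 1.31 ± 0.41, and per kilobase, at 2.27 ± 0.30. Slc16a3 had few reads, 272 counts in replicate 1 and 220 in replicate 2, and their division among its transcripts differed: Slc16a3-202 held 11.6% of the level in replicate 1 and 38.8% in replicate 2. Bsg, the chaperone that brings MCT1 and MCT4 to the membrane, was at 611 ± 10.2 TPM.

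RNAs of the pyruvate dehydrogenase subunits were present in unequal amounts. Pdhb, the beta subunit of the first enzyme, was at 190 TPM in replicate 1, against 200 TPM in replicate 2 and exceeded its X-linked alpha partner Pdha1, at 105 TPM in both. Pdha1 over Pdhb had a log2 ratio of -0.89 ± 0.05. Dlat, the acetyltransferase core, was at 36.8 ± 0.93 TPM, of which 77.1 ± 2.93% was the coding transcript Dlat-201. The kinases that switch the complex off lay close together: Pdk1, induced by hypoxia, was at 21.3 ± 2.01 TPM, Pdk2, the widely expressed form, at 22.9 TPM in replicate 1 and 24.7 in replicate 2, and Pdk3 at 26.4 ± 3.64 TPM. Pdk1 over Pdk2 at -0.17 ± 0.06 and Pdk3 over Pdk2 at 0.15 ± 0.12 did not exceed 3 SD. For Pdk1 over Pdk2 the other measures did, at -0.53 ± 0.07 over coding transcripts and -0.36 ± 0.01 per kilobase of the longest coding transcript. Of the 8 further genes of pyruvate handling, all reached 1 TPM in both libraries, led by the subunits of the mitochondrial pyruvate carrier, Mpc1 at 294 ± 11.1 TPM and Mpc2 at 138 ± 1.68 TPM. Pdk4, the kinase of fasting and fat use, was lowest at 1.57 ± 0.26 TPM.

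In the pentose phosphate pathway, Tkt and Taldo1 of the non-oxidative branch exceeded the dehydrogenases of the oxidative branch. Taldo1, transaldolase, was at 278 TPM in replicate 1, against 307 TPM in replicate 2, and Tkt, transketolase, at 171 TPM in replicate 1, against 178 TPM in replicate 2. The NADPH-forming dehydrogenases G6pdx, which opens the pathway, and Pgd were at 52.5 ± 3.03 and 79.5 ± 1.03 TPM. Summed, Tkt and Taldo1 came to 467 ± 25.4 TPM and G6pdx and Pgd to 132 ± 4.07 TPM. Of 5 further enzymes, 4 reached 1 TPM in both libraries, with Pgls, the lactonase between the dehydrogenases, at 150 ± 11.1 TPM. The other non-oxidative enzymes were below G6pdx and Pgd, with the epimerase Rpe at 34.7 ± 3.33 TPM and the isomerase Rpia at 2.43 ± 0.48 TPM. Tktl1 had 1 count in replicate 1 and 3 in replicate 2.

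Of the hypoxia genes, Hif1a, the oxygen-regulated subunit of the HIF1 transcription factor, was at 62.3 TPM in replicate 1, against 75.9 TPM in replicate 2. Bnip3, a mitophagy receptor and HIF1 target, was at 73.8 TPM in replicate 1, against 82.9 TPM in replicate 2. Among 13 further genes of the HIF pathway, 12 reached 1 TPM in both libraries. Bnip3l, the relative of Bnip3 with roles in red blood cell maturation, led them at 456 ± 32.4 TPM, and the HIF hydroxylase Egln2 was at 81.4 ± 3.10 TPM. Among hypoxia targets, Ndrg1 was at 50.7 ± 4.49, Kdm3a at 41.0 ± 7.08 and Ankrd37 at 21.2 ± 0.93 TPM, and Vegfa and Car9 were low, at 2.49 ± 0.51 TPM and at 3 and 5 counts in replicates 1 and 2.

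Further isozymes, most of them known from other tissues, were mostly scarce. Of 14 such genes, 5 reached 1 TPM in both libraries, and the 1 that reached 10 TPM was Aldoc, itself a brain isozyme. The muscle enolase Eno3 was at 6.11 ± 1.05 TPM and the insulin-responsive transporter gene Slc2a4 at 5.56 ± 0.01 TPM. The sperm isozyme gene Pgk2 had no count in either library, which allows up to 0.107 TPM in replicate 1, against 0.128 TPM in replicate 2, for counting error only.

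Between the pools, the 37 genes differed little, as did most genes. Differences are log2 ratios of replicate 1 over replicate 2 of counts after trimmed mean scaling, with a 95% exact Clopper-Pearson interval for counting error only. All 37 had a mean of at least 50 counts and were compared among 13927 such genes. None differed by 1.5-fold or more with an interval that excludes equality, while 4.68% of all compared genes were higher by that rule in replicate 1 and 1.90% in replicate 2. Their median log2 ratio was 0.002, beside -0.01 over all compared genes, and 19 ratios were above 0 and 18 below. The median size of the ratio, sign aside, was 0.08, beside 0.14 over all compared genes, and 86.5% and 80.1% were under 0.32 in size. The 37 genes had a higher median level than detected protein-coding genes, and these sizes were not matched for level or counting error. The interval lay above 0 for 6 of the 37 and below 0 for 12, against 24.0% and 26.5% of all compared genes. With spike-in scaling all ratios shift by -0.55, the 37 genes and the rest alike.

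The 1.5-fold rule corresponds to a log2 ratio of 0.58. At a lower limit of 0.32 on that scale, 3 of the 37 were higher in replicate 1, where 10.9% of all compared genes were, and 2 were higher in replicate 2, where 6.66% were. These shares are near the background. Those higher in replicate 1 were Eno2 at 0.48 (0.38 to 0.58), Pfkp at 0.40 (0.35 to 0.46) and Slc2a3 at 0.36 (0.25 to 0.46). In counts, Eno2 had 1956 in replicate 1 and 1192 in replicate 2, and Slc2a3 had 1859 and 1232. Those higher in replicate 2 were Slc16a1 at -0.35 (-0.47 to -0.24) and Hif1a at -0.32 (-0.38 to -0.27), which only just passed the limit. The nearest genes inside the limit were Pdk3 at -0.26, Slc2a1 at -0.20 and Bnip3 at -0.19.

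The samples differ in makeup beside these genes. The 5 neuronal markers had a median log2 ratio of 0.12, with 3 above 0 and 2 below, and the 5 endothelial markers -0.24, all below 0. The 3 astrocyte markers, which include Aldoc, had -0.63, all below 0. Among these, Gfap had only 50 and 66 counts and Aqp4 80 and 112, while the abundant Aldoc was at -0.31. Red blood cell markers had -0.34, radial glia markers -0.32 and meningeal fibroblast markers -1.22. The 2 markers of the cortical excitatory lineage, also neuronal, had -0.295, the 2 of the ganglionic eminences -0.104 and the 3 of microglia -0.26, all below 0. The 3 hypothalamic markers had 2.29, all above 0, and the 1 cartilage marker with enough counts had -1.18. The part of these cells in the ratios of Eno2, Slc2a3, Slc16a1 or Hif1a was not tested. Of the 56 other pathway genes, 39 had enough counts and 2 passed the 1.5-fold rule: Rpia was higher in replicate 1 at 0.60 (0.18 to 1.03), and the HIF target Adm was higher in replicate 2 at -0.77 (-1.22 to -0.33).

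**Figure D4:**
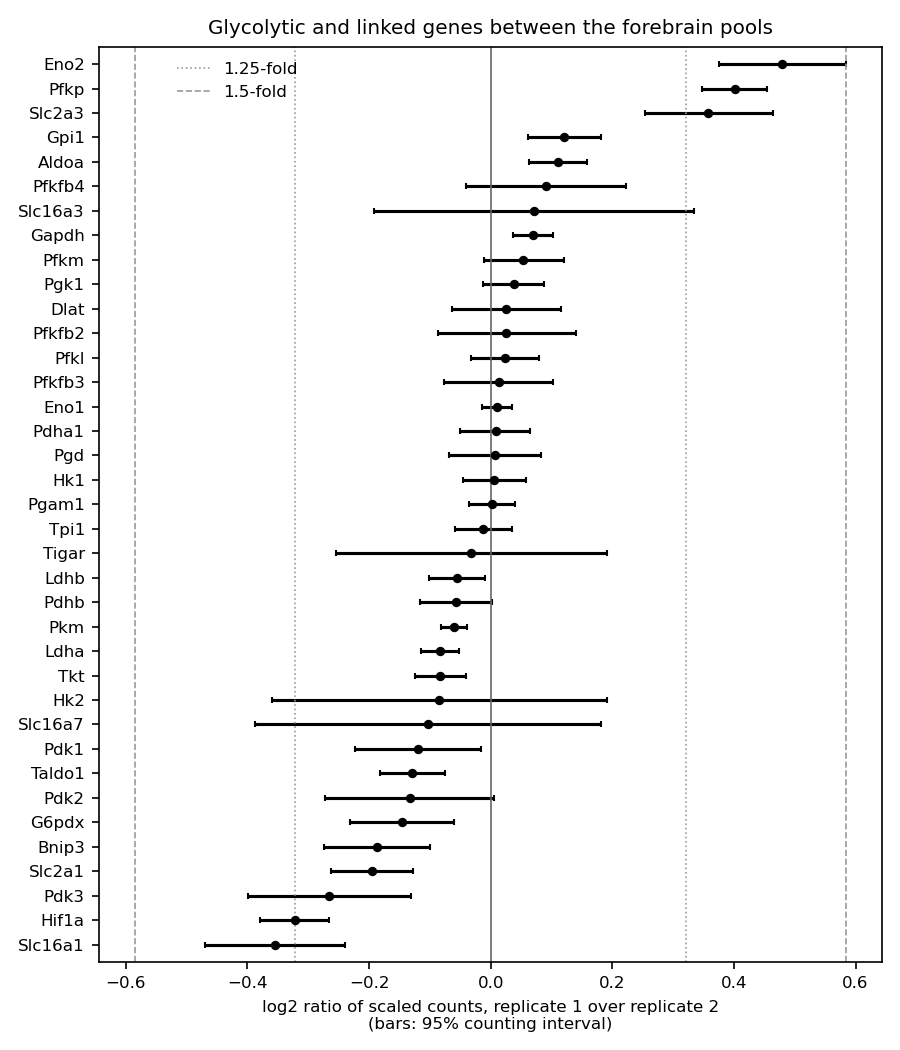
Log2 ratio of scaled counts, replicate 1 over replicate 2, for the 37 genes from highest to lowest, with 95% counting intervals; dotted lines mark log2 ratios of 0.32 either way and dashed lines mark 1.5-fold. All 37 points lie inside the dashed lines, and 5 points lie outside the dotted ones, Hif1a only just.

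Transcript choice was also similar in the pools, for these genes about as often as for all genes compared. Among the 29 genes that reached 10 TPM and had 2 or more transcripts listed, 27 had the same leading transcript in both libraries, where 92.8% of 6833 genes did. The exceptions were Pkm and Eno2, whose leading forms were close in share. In 17 of the 29 a single transcript held at least 80% in both libraries, against 32.9% of all genes so compared. Pfkm was divided between start sites on chromosome 15, with Pfkm-201 (start 98108466) at 56.5% in replicate 1 and 52.9% in replicate 2 and Pfkm-202 (start 98092589), which has the same coding sequence, at 43.5% and 47.1%. Exons of 8 of the 37 genes overlap those of another gene detected at 1 TPM, and in each case that gene lies on the opposite strand. These include Pfkfb2, whose neighbour Yod1 had more counts than it, G6pdx with Ikbkg, Pfkm with Senp1 and Pfkp with Pitrm1. Whether the counting used strand is not given in the sources used here, so the levels of these genes are uncertain to that extent.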

How the data were processed

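Total RNA of 2 forebrain pools was measured with 1 gene table and 1 transcript table per library. The authors used the mm10 build and annotation M4, per the notes deposited with each sample; for the aligner and the counting program, name and version are not given in the sources. The authors deposited expected counts, unnormalized, and TPM and FPKM, per the file headers. The TPM of all features, spike-ins included, were scaled to a fixed sum, and spike-ins took 5.93% of it in replicate 1 and 4.10% in replicate 2. The transcript tables also hold, as the authors deposited it, the percent that a transcript makes up of its gene's level.

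Identifiers were matched without their version to GENCODE M21 (GRCm38, the assembly of mm10), which named 42462 of 43346 genes. M21 is not the release the authors used, so transcript types and exons are those of M21. Expected counts were rounded to whole numbers. Library scaling used TMM (trimmed mean) factors of edgeR 4.0.16 under R 4.3.3, with DESeq2 1.42.0 size factors as an alternative. Ratios between the pools used a prior count of 0.5 and a mean of at least 50 counts. Ratios between genes of a step used TPM plus 0.1. They counted as apart when both libraries had 1 sign and the mean exceeded 3 SD. With 2 libraries an exact test cannot give a p under 0.5, so none was run. Pseudogenes were matched with BLAST 2.17.0 at 85% identity over at least 50% of their length. Other steps used Python 3.11.15, numpy 2.4.6, pandas 2.3.3, scipy 1.17.1 and matplotlib 3.10.9.

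All 37 genes are named, and the other pathway genes come from lists by function. One gene of these lists is not reported here and is left out of their counts. The genes, lists and pairs were chosen with earlier results of these data known. As alternatives, other scalings, count and TPM minimums, pseudocounts and folds were tried, as were FPKM, posterior means and leaving out each replicate. PCR reads are not independent molecules, so intervals and floors, set at 3 counts, cover counting error only.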

Additional observations from a re-analysis of the deposited data

How the results depend on the processing

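Of the 37 genes, all stayed at 1 TPM or more with a minimum of 0.5, with posterior means, FPKM, TPM rescaled to genes, coding transcripts alone, and without either replicate (37 to 37), and 35 were at 5 TPM or more. The number of gene pairs apart was 13 of 16, and 10 to 14 under the alternatives. The pairs include Pdha1 over Pdhb and Pfkfb3 over Tigar, which are not isoforms, and those among Pfkl, Pfkm and Pfkp depend on each other. Apart refers to the spread between libraries and not to size, as Pfkl over Pfkm counted at a log2 ratio of 0.08. With coding transcripts alone 3 pairs reversed, namely Pfkp over Pfkm to -1.26, Pfkl over Pfkp to 1.31 and Pfkfb4 over Pfkfb2 to 0.29; per kilobase of the longest coding transcript Pfkl over Pfkp reversed to 0.027. These follow from the transcripts each measure counts. The M1 share of Pkm was 50.7% and ranged from 48.7% to 52.8% without 1 replicate. Genes past the fold between the pools numbered 17 under spike-in scaling and 5 at a limit of 0.32 on the log2 scale, and 0 under the other scalings and count minimums, at 2-fold and with posterior means. Spike-in scaling moves the log2 ratio of every gene by -0.55, close to the limit of 0.58. No share over all genes is given for that scaling, so the 17 are not read as particular to these genes. The median log2 ratio was -0.55 under spike-in scaling, which shifts all genes alike, and -0.002 to 0.03 under the others. Leading transcripts matched in 20 to 30 genes as the TPM minimum changed from 50 to 1, which also changes how many genes are compared. Differences between the pools could not be recomputed with a replicate left out. No paired analysis was possible because the labels give 1 group only. Precision is limited by 2 libraries, and for Slc16a7, Slc16a3 and Hk2 by counts near 200.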

Other observations

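Glycogen and gluconeogenic genes, which feed sugar phosphates into or out of the same pathway, divided by tissue type. Pygb, the brain-type glycogen phosphorylase, was at 85.3 TPM in replicate 1, against 93.7 TPM in replicate 2, whereas the liver form Pygl and the muscle form Pygm were at 5.04 ± 1.18 and 2.21 ± 0.21 TPM. Gys1, the glycogen synthase of muscle and brain, was at 17.4 ± 1.28 TPM, and Gys2, the liver synthase, had 1 count in each library. Of 8 glycogen genes, 7 reached 1 TPM in both libraries, and none passed the 1.5-fold rule between the pools.

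Of 6 gluconeogenic genes, 2 reached 1 TPM in both libraries. These were Pck2, the mitochondrial carboxykinase, at 11.2 ± 0.97 TPM, and G6pc3, the widely expressed glucose phosphatase, at 20.0 ± 2.53 TPM. The liver genes Pck1 and Fbp1 had 1 count each in replicate 1, and 0 and 4 counts in replicate 2.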
